A study of Mus musculus with 6 samples.

Results

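Wnt signalling was read in whole fetal mouse lungs through 51 genes, grouped by role as Wnt ligands, genes of Wnt secretion and inactivation, R-spondins with their receptors and ligases, Wnt receptors, antagonists, intracellular transducers and nuclear effectors. They were taken as every probe set whose single gene symbol in the platform annotation was one of the 51, which gave 114 of the 45037 probe sets that were not Affymetrix controls. These stood for 50 of the 18193 genes named on the array; Tcf7 was not analysed here. Each of the 6 arrays measured the lung of 1 animal at embryonic stage E18.5, late in gestation. In 3 animals, labelled Nfibf/f, Dermo1-Cre, Nfib, which encodes nuclear factor I B, a DNA-binding regulator, was floxed on both alleles and the Dermo1-Cre driver was present. The other 3, labelled Nfibf/f, carried the same floxed alleles with no Cre in their label, so floxed Nfib was common to all 6. Dermo1-Cre is expressed from the Twist2 locus and recombines in mesenchyme, so the epithelium of a Cre-labelled lung is expected to keep Nfib, and whole-lung RNA mixes both compartments. The question behind the comparison is what Nfib in the mesenchyme contributes to growth and to maturation of the epithelium.

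Wnt ligands are lipid-modified secreted proteins that bind Frizzled receptors together with the co-receptors Lrp5 and Lrp6. Binding stops the Axin and Apc complex from degrading beta-catenin, the product of Ctnnb1, which then acts with Lef1 and the Tcf proteins on target genes such as Axin2. R-spondins amplify the signal by keeping the ligases Rnf43 and Znrf3 from removing Frizzled receptors, and other ligands such as Wnt5a act through Ror receptors without beta-catenin. In the mouse lung, Wnt2 and Rspo2 are made by mesenchyme and Wnt7b by epithelium, and Wnt signals pass in both directions between these layers.

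The labels could not be checked through Nfib itself, so the groups are called Cre-labelled and control-labelled. Of 6 tested Nfib probe sets, 5 passed as higher in Cre-labelled lungs. The brightest of the 6 read 11.24, 11.16 and 11.49 on the Cre-labelled arrays and 10.24, 10.32 and 10.17 on the control-labelled arrays (log2 difference 1.05 ± 0.12 SE, limma adjusted p = 0.0049). The tested probe set that did not pass had overlapping groups and a difference of -0.11 ± 0.13 SE (limma adjusted p = 0.71). The sources used here do not place these probes relative to the floxed part of Nfib, so each direction below rests on the labels. All values are log2 MAS5 signals, and every difference is Cre-labelled minus control-labelled. The 6 arrays had the same trimmed mean signal (150.04 to 150.05), and 1 lung of each group was female by Xist and Y-linked signal.

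The 5' regions of the 5 passing genes that had a window in the promoter table are shown because the family of nuclear factor I proteins binds TTGGC followed, after any 5 bases, by GCCAA, and with lower affinity the half-site TTGGC alone. The sequences are the 250 bases before the annotated start in RefSeq's GRCm38.p6 table, written 5′ to 3′ on the strand of the gene, with every TTGGC or its reverse complement GCCAA in capitals. Wnt2, Lef1 and Ror1 were higher and Nkd1 and Fzd4 lower in Cre-labelled lungs.
Wnt2 (chr6:18030446-18030695, minus strand): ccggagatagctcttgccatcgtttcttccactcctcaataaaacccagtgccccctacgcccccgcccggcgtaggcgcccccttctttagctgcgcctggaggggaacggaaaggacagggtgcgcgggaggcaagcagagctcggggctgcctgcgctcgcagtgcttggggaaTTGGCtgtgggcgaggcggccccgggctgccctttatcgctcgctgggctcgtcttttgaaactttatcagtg
Lef1 (chr3:131110047-131110296, plus strand): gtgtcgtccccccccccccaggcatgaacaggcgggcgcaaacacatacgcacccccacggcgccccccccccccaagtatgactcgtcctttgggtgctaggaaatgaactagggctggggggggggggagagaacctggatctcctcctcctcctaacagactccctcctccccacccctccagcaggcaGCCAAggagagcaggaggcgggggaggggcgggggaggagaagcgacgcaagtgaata
Ror1 (chr4:100095541-100095790, plus strand): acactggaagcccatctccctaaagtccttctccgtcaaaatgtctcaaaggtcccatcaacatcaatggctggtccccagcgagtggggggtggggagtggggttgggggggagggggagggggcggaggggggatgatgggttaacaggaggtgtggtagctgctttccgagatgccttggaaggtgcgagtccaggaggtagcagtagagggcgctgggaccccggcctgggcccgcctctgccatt
Nkd1 (chr8:88527383-88527632, plus strand): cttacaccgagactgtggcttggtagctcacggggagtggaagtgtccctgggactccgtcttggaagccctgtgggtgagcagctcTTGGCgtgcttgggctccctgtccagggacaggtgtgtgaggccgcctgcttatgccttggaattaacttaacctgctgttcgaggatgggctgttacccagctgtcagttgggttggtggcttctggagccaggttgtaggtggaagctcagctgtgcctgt
Fzd4 (chr7:89404116-89404365, plus strand): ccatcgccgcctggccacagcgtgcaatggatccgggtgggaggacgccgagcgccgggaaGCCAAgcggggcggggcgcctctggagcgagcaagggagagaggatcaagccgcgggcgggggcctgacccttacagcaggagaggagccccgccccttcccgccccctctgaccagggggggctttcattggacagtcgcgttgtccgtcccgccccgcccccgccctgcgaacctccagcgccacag
The Ror1 window held no half-site. The other 4 windows printed held 1 each, whose first base lay 73 bases before the start in Wnt2, 58 in Lef1, 163 in Nkd1 and 189 in Fzd4. Lef1 has 4 annotated starts, and the one printed is the first in coordinate order. Of these 4 windows, 2 overlap and held the same half-site, which counts in each of them below, and 2 held none. The table had windows for 32 of the 51 genes, 42 in all, and Rspo2 and Dkk3 were not among them. A half-site on either strand occurred in 18 of the 42 windows (42.9%), against 41.5% of all 32851 windows in the table, a similar share. The full site was in none of the 42 and in 0.0365% of all windows. The letters CTTTGAT, which TCF and LEF proteins bind, were in 2 of the 42 (those of Wnt11 and Wnt5b) and in 3.21% of all windows. Each motif was searched on both strands, and TTGGC is itself contained in the full site. These matches describe letters only and were not set against binding data.

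Of the 47 tested genes, 7 had at least 1 probe set that passed the test, 4 genes higher and 3 lower in Cre-labelled lungs. They came from different steps of the pathway. The ligand gene Wnt2, the R-spondin gene Rspo2, the receptor gene Ror1 and the transcription factor gene Lef1 rose. The Dickkopf gene Dkk3, the Frizzled gene Fzd4 and the feedback inhibitor gene Nkd1 fell. By the brightest probe set of each gene alone, 6 of the 47 passed, 4 higher and 2 lower, because Nkd1 passed only on a dimmer one. In a fit of 1 mean value per gene, 974 of 12826 genes passed, with 4 of the Wnt pathway genes higher and 3 lower. In that fit Lgr4 passed and Fzd4 did not. Of the 114 probe sets, 86 reached the signal needed for testing (a mean of at least 4.003 over the 6 arrays), and 8 of these (9.3%) passed a limma adjusted p of 0.05, 4 higher and 4 lower. Over all 27022 tested probe sets 3.56% passed, 1.41% as higher and 2.16% as lower. The genes were chosen with earlier results of these data known, so the larger share cannot be read as an excess. The median log2 difference of the 86 was -0.05, against 0.0011 for all tested probe sets, and the median size of the difference without its sign was 0.22 against 0.20. The groups did not overlap in 23 of the 86, 10 higher and 13 lower, where 26.1% of all tested probe sets did not overlap (13.3% higher and 12.8% lower). At an unadjusted p under 0.05 there were 17, 6 higher and 11 lower, against 19.5% of all tested probe sets (9.5% and 9.97%), so both of these looser counts lay near those of the whole array. The remaining 3 genes, Wnt2b, Frzb and Dvl3, had no tested probe set.

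**Figure D1:**
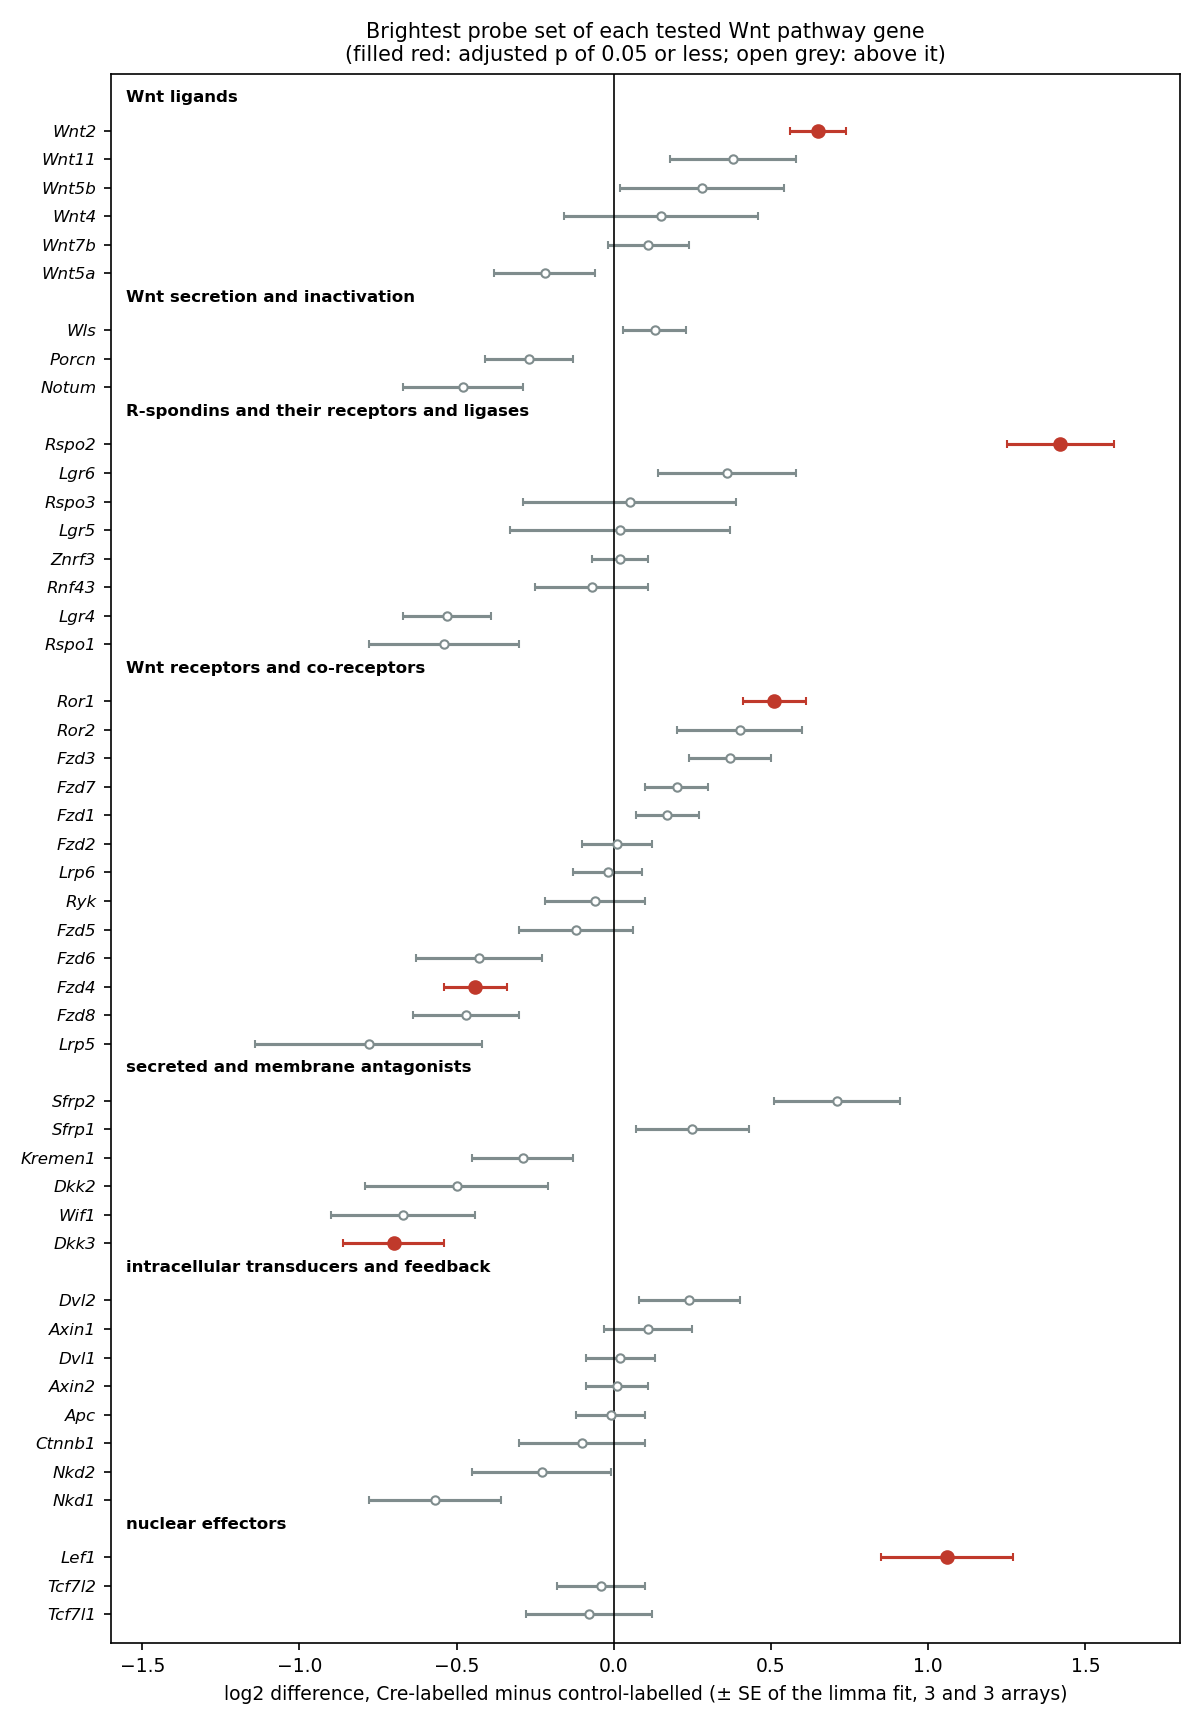
Log2 difference (horizontal axis, Cre-labelled minus control-labelled, ± SE of the limma fit on 3 and 3 arrays) of the brightest probe set of each of the 47 tested genes, by role. Filled red points passed an adjusted p of 0.05. Nkd1 is drawn as not passing, because its passing probe set is not its brightest. Rspo2 (1.42) and Lef1 (1.06) lie farthest to the right, and most genes lie near 0.

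Among the ligands, Wnt2 rose and the others did not pass. Wnt2, which with Wnt2b is needed to specify the mouse lung, read 10.18, 10.15 and 10.21 on the Cre-labelled arrays and 9.51, 9.55 and 9.53 on the control-labelled arrays. The arrays of each group lay within 0.1 of each other and the groups were far apart compared with that spread. The difference was 0.65 ± 0.09 SE, a 1.57-fold higher signal (limma adjusted p = 0.0085). Wnt2 passed in each of the 6 fits without 1 array (adjusted p 0.025 to 0.038) and missed the threshold when the fit had no intensity trend (0.056). Wnt2b stayed below the filter, at 3.29, 1.2 and 3.90 on Cre-labelled and 3.68, 2.79 and 1.04 on control-labelled arrays, a level at which MAS5 values are noisy.

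Wnt7b, the ligand made by lung epithelium, read 7.30, 7.08 and 7.05 on Cre-labelled and 7.16, 7.03 and 6.93 on control-labelled arrays. These groups overlapped, and the 95% interval of the difference (0.11) ran from -0.19 to 0.41. Wnt5a, which signals through Ror receptors, had 4 tested probe sets with differences from -0.26 to 0.26. Its brightest had a mean of 7.49 ± 0.13 in Cre-labelled and 7.71 ± 0.29 in control-labelled lungs (SD, n = 3 each; limma adjusted p = 0.49). Wnt11 had the largest difference of the ligands that did not pass, 0.38 ± 0.20 SE (adjusted p = 0.34). Wnt4 (0.15 ± 0.31 SE) and Wnt5b (0.28 ± 0.26 SE), close to the filter level on all arrays, did not pass.

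Genes that load and unload the ligands did not pass in limma, and 1 of their 5 tested probe sets, that of Notum, had an unadjusted p under 0.05. Wls, the carrier that takes Wnt proteins to the cell surface, had 3 tested probe sets with differences between -0.03 and 0.13. Porcn, which attaches the lipid, had a difference of -0.27 ± 0.14 SE (limma adjusted p = 0.33). Notum, the secreted enzyme that removes this lipid and is itself a Wnt target, had one of -0.48 ± 0.19 SE (adjusted p = 0.20), with overlapping groups.

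Rspo2 had the largest difference of the 86 probe sets. It read 6.86, 7.14 and 7.01 on Cre-labelled and 5.37, 5.79 and 5.59 on control-labelled arrays. The lowest Cre-labelled array was more than 1 log2 unit above the highest control-labelled one. The difference was 1.42 ± 0.17 SE, or 2.68-fold (95% interval 2.05 to 3.50, limma adjusted p = 0.0056). Adding 64 to every linear signal first, which damps dim probe sets, gave 0.78. Rspo2 passed in each of the 17 alternative fits (adjusted p 0.0044 to 0.046). A second, dimmer Rspo2 probe set lay at the filter level, with 4.16, 4.47 and 3.95 on Cre-labelled and 3.48, 4.07 and 4.35 on control-labelled arrays, and did not pass (0.23 ± 0.32 SE).

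The other R-spondin genes did not pass. Rspo1 read 5.59, 6.22 and 6.47 on Cre-labelled and 6.47, 6.53 and 6.90 on control-labelled arrays, with no overlap, although the closest arrays of both groups round to 6.47. Its difference of -0.54 ± 0.24 SE did not pass (limma adjusted p = 0.25). The tested Rspo3 probe set, near the filter level, had 0.05 ± 0.34 SE.

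Of the R-spondin receptors, Lgr4 came closest to the threshold and was lower. It read 6.94, 7.16 and 7.31 on Cre-labelled and 7.53, 7.62 and 7.85 on control-labelled arrays, with no overlap. The difference was -0.53 ± 0.14 SE (limma adjusted p = 0.075), and it passed only with the replicate number as a block and in the fit of 1 mean value per gene, which tests fewer features (adjusted p 0.041 in each). The brightest probe sets of Lgr6 and Lgr5 had differences of 0.36 ± 0.22 SE and 0.02 ± 0.35 SE, and neither passed. The ligases that R-spondins restrain were close to 0: Znrf3 had 0.02 ± 0.09 SE (95% interval -0.19 to 0.24) and Rnf43 had -0.07 ± 0.18 SE.

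**Figure D2:**
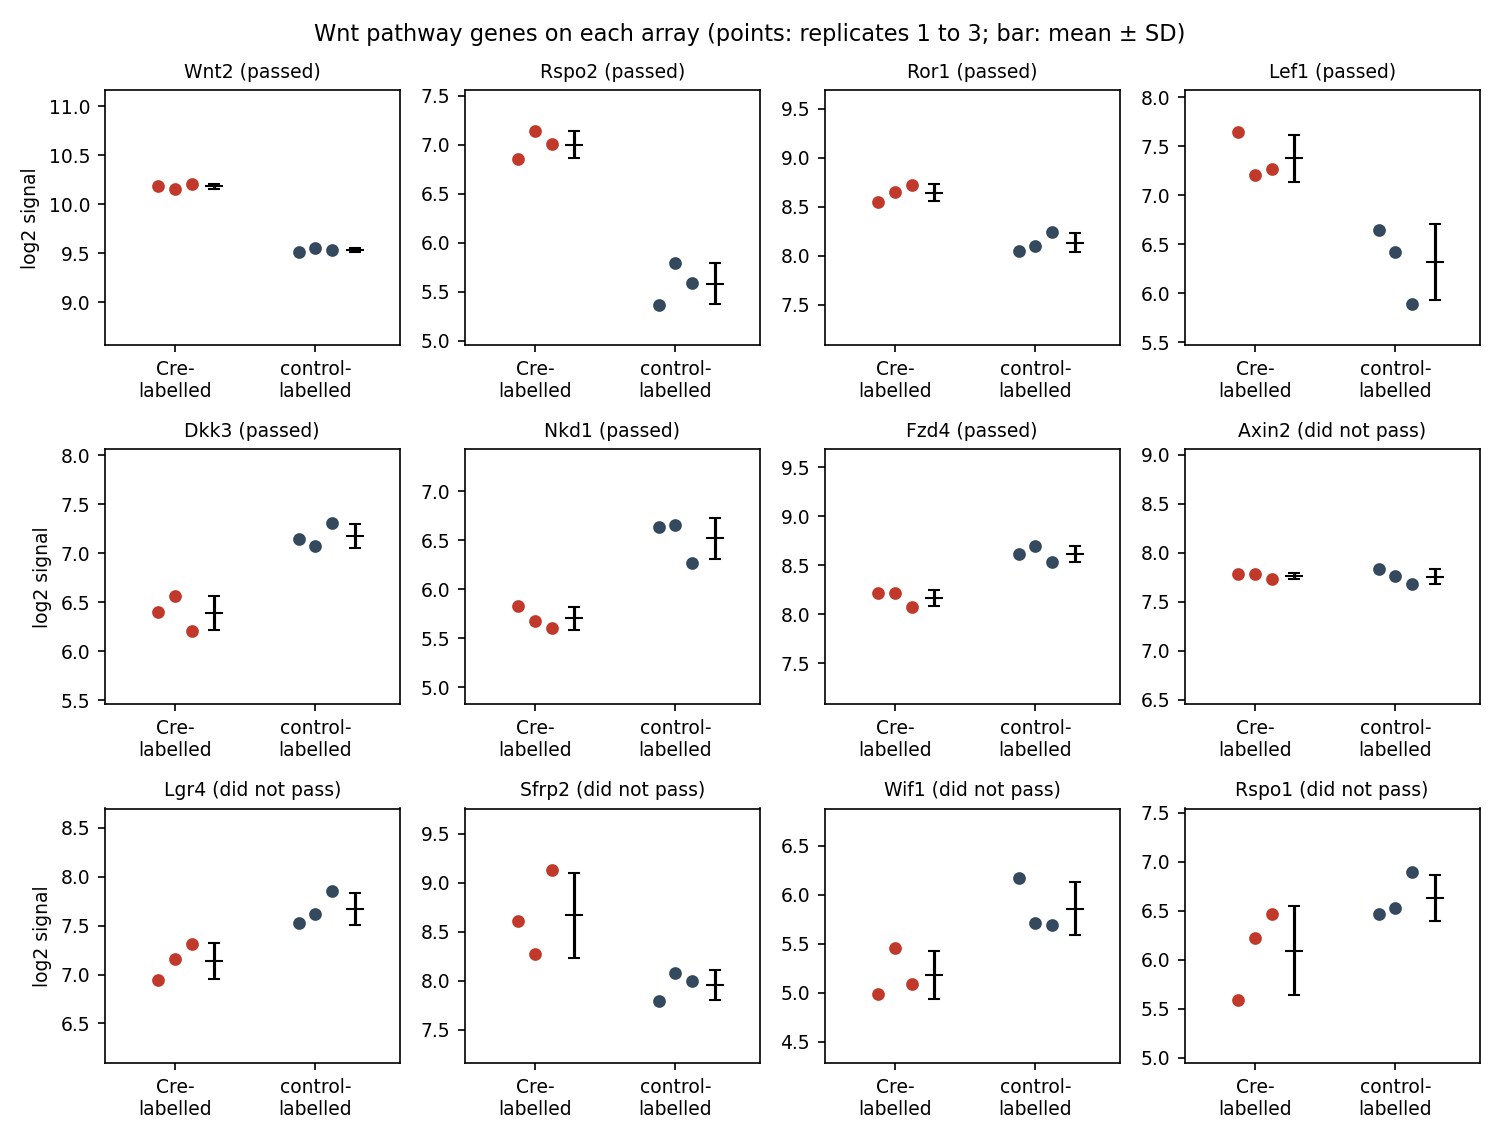
Log2 signal (vertical axis, each panel spanning the same range) of 12 genes on each array, with Cre-labelled arrays in red on the left, control-labelled arrays in dark blue on the right and the mean ± SD beside each group of 3. The groups do not overlap in Wnt2, Rspo2, Ror1, Lef1, Dkk3, Nkd1 and Fzd4, which passed, nor in Lgr4, Sfrp2, Wif1 and Rspo1, which did not pass. Axin2 lies at the same level on all 6 arrays. For genes with several probe sets the passing one with the smallest p is drawn, or otherwise the brightest.

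Among 13 receptor genes Ror1 rose, Fzd4 fell and 11 did not pass. Ror1, a receptor tyrosine kinase-like protein that binds Wnt5a, read 8.55, 8.65 and 8.72 on Cre-labelled and 8.05, 8.10 and 8.24 on control-labelled arrays. The difference was 0.51 ± 0.10 SE, or 1.42-fold (limma adjusted p = 0.031). Its call was lost in each of the 6 fits without 1 array (adjusted p 0.052 to 0.10), with the difference between 0.47 and 0.56. Ror2, its relative, had 2 tested probe sets, each with a difference of 0.40 and neither passing; the brighter read 6.32, 6.45 and 6.21 in Cre-labelled and 6.10, 6.14 and 5.53 in control-labelled lungs. Ryk, a further kind of Wnt receptor, had differences from -0.14 to 0.26 over 3 probe sets.

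Fzd4, the Frizzled receptor that also binds norrin in endothelium, read 8.22, 8.21 and 8.07 on Cre-labelled and 8.61, 8.69 and 8.53 on control-labelled arrays. The difference was -0.44 ± 0.10 SE (limma adjusted p = 0.044), a signal 1.36-fold higher in control-labelled lungs. It lost its call in each of the 6 fits without 1 array (adjusted p 0.076 to 0.14). A dimmer Fzd4 probe set had -0.24 ± 0.19 SE and did not pass. Endothelial markers were lower as well: of 6 measured, 1 passed as lower (Car4), 5 had a lower mean, and their summed linear signal was 4508 to 5589 in Cre-labelled and 6255 to 6823 in control-labelled lungs. Their part in the Fzd4 difference was not tested. In whole-lung RNA, fewer cells of a type and less RNA per cell cannot be told apart.

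No other Frizzled gene passed, and their differences had both signs. Fzd3 read 7.85, 7.77 and 7.93 on Cre-labelled and 7.59, 7.61 and 7.24 on control-labelled arrays (0.37 ± 0.13 SE, limma adjusted p = 0.15), while its 3 dimmer tested probe sets ranged from -0.17 to 0.53. Fzd8 had a negative difference on both of its tested probe sets. The brighter read 5.92, 6.19 and 5.83 on Cre-labelled and 6.37, 6.59 and 6.38 on control-labelled arrays (-0.47 ± 0.17 SE, adjusted p = 0.16), and the other differed by -0.46 ± 0.21 SE. Fzd1 (0.17 ± 0.10 SE) and Fzd7 (0.20 ± 0.10 SE) were slightly higher without overlap and did not pass. Fzd5 had -0.12 on its brightest probe set and Fzd6 had -0.43 ± 0.20 SE (adjusted p = 0.27). For Fzd2 all 3 probe sets lay between -0.12 and 0.01. Of the co-receptors, Lrp6 had -0.02 ± 0.11 SE, and Lrp5, dim on every array, read 4.62, 4.34 and 3.25 on Cre-labelled and 4.93, 4.76 and 4.84 on control-labelled arrays (-0.78 ± 0.36 SE, adjusted p = 0.28).

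Among the antagonists Dkk3 fell, and Sfrp2 had the highest positive difference without passing. Of their 12 tested probe sets 9 had a negative difference and the median was -0.32. Over the whole array 13473 of 27022 tested probe sets had a negative difference. Several of the 12 belong to the same gene. By the brightest probe set of each of the 6 tested genes, 4 differences were negative and 2 positive. Of the 12 probe sets 2 passed, both of Dkk3. Dkk3 is the most divergent member of the Dickkopf family, whose other members block Lrp5 and Lrp6. Its brighter probe set read 6.76, 7.19 and 7.33 on Cre-labelled and 7.86, 7.80 and 7.70 on control-labelled arrays (-0.70 ± 0.16 SE, limma adjusted p = 0.045). The other read 6.40, 6.56 and 6.21 on Cre-labelled and 7.15, 7.07 and 7.31 on control-labelled arrays (-0.78 ± 0.15 SE, adjusted p = 0.025). Both probe sets separated the groups. In the 6 fits without 1 array the brighter passed once, with Cre-labelled replicate 3 left out (adjusted p 0.048 to 0.13 over the 6), and the dimmer once, with Cre-labelled replicate 2 left out (0.041 to 0.081).

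Cardiac muscle markers also differed on average between the groups, and widely inside them. None of 10 passed in limma (8 at an unadjusted p under 0.05, all lower), all 10 had a lower mean in Cre-labelled lungs, and their summed linear signal was 1904 to 4909 in Cre-labelled and 3214 to 12566 in control-labelled lungs. With the mean of this list as a covariate the 2 Dkk3 probe sets differed by -0.47 (limma adjusted p = 0.21) and -0.93 (0.053). With the same covariate Rspo2 (1.38, adjusted p = 0.036) and Wnt2 (0.65, adjusted p = 0.041) passed, and Lef1 had 1.26 (0.061), Ror1 0.49 (0.11), Nkd1 -0.75 (0.15) and Fzd4 -0.46 (0.12).

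Sfrp2, a secreted Frizzled-related protein that binds Wnt ligands, read 8.61, 8.27 and 9.13 on Cre-labelled and 7.79, 8.08 and 8.0 on control-labelled arrays. The groups did not overlap, with Cre-labelled replicate 3 the highest. The difference of 0.71 ± 0.20 SE did not pass (limma adjusted p = 0.081) and passed without Cre-labelled replicate 2 (0.039). Sfrp1, its relative, had 5 tested probe sets that disagreed in sign, from -0.87 to 0.51, and none passed. Wif1, which binds Wnt ligands outside the cell, read 4.99, 5.46 and 5.09 on Cre-labelled and 6.17, 5.71 and 5.69 on control-labelled arrays (-0.67 ± 0.23 SE, adjusted p = 0.14). Dkk2 (-0.50 ± 0.29 SE) and Kremen1, which binds Dickkopf proteins (-0.29 ± 0.16 SE), did not pass.

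Inside the cell, Nkd1 fell and no gene of the core of the pathway passed. Nkd1 binds Dishevelled and is a feedback inhibitor that Wnt signals induce. The passing probe set read 5.83, 5.67 and 5.60 on Cre-labelled and 6.63, 6.65 and 6.27 on control-labelled arrays (-0.82 ± 0.18 SE, limma adjusted p = 0.039). Of the other 3 Nkd1 probe sets, 1 also separated the groups, at 6.15, 6.14 and 5.86 on Cre-labelled against 6.58, 6.73 and 6.62 on control-labelled arrays (-0.59 ± 0.16 SE, adjusted p = 0.072). The brightest read 6.97, 6.67 and 6.80 on Cre-labelled against 7.53, 6.91 and 7.73 on control-labelled arrays (-0.57 ± 0.21 SE, adjusted p = 0.16), and the dimmest differed by -0.13. All 4 thus had a negative difference. The call was lost in each of the 6 fits without 1 array (adjusted p 0.051 to 0.12).

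Axin2, a scaffold of the degradation complex and the most used readout of beta-catenin signalling, read 7.78, 7.78 and 7.73 on Cre-labelled and 7.83, 7.76 and 7.68 on control-labelled arrays. The difference was 0.01 ± 0.10 SE, and its 95% interval of -0.22 to 0.24 covers changes of up to 1.18-fold in either direction. Ctnnb1 read 12.24, 12.16 and 12.52 in Cre-labelled and 12.10, 12.30 and 12.82 in control-labelled lungs (-0.10 ± 0.20 SE, limma adjusted p = 0.82), and its 3 probe sets ranged from -0.10 to 0.14. The tested probe sets of Apc, Axin1, Dvl1 and Dvl2, the other parts of the relay, lay between -0.15 and 0.24, and none passed. Nkd2, the relative of Nkd1, had -0.23 ± 0.22 SE.

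Among the nuclear effectors Lef1 rose and the others did not pass. Lef1, a partner of beta-catenin that is itself induced by Wnt signals, read 7.65, 7.21 and 7.27 on Cre-labelled and 6.65, 6.42 and 5.89 on control-labelled arrays. Each Cre-labelled array lay above each control-labelled one, and control-labelled replicate 3 was the lowest. The difference was 1.06 ± 0.21 SE, or 2.09-fold (limma adjusted p = 0.030), and 0.67 with the offset of 64. A dimmer Lef1 probe set, below the filter and therefore untested, read 4.47, 3.76 and 3.79 on Cre-labelled and 3.23, 2.66 and 2.37 on control-labelled arrays, also without overlap. The Lef1 call held when control-labelled replicate 1 was left out and was lost for each of the other 5 arrays (adjusted p 0.043 to 0.094). Tcf7l1 (-0.08 ± 0.20 SE) and Tcf7l2 (-0.04 ± 0.14 SE) differed by less than the spread of the arrays.

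**Figure D3:**
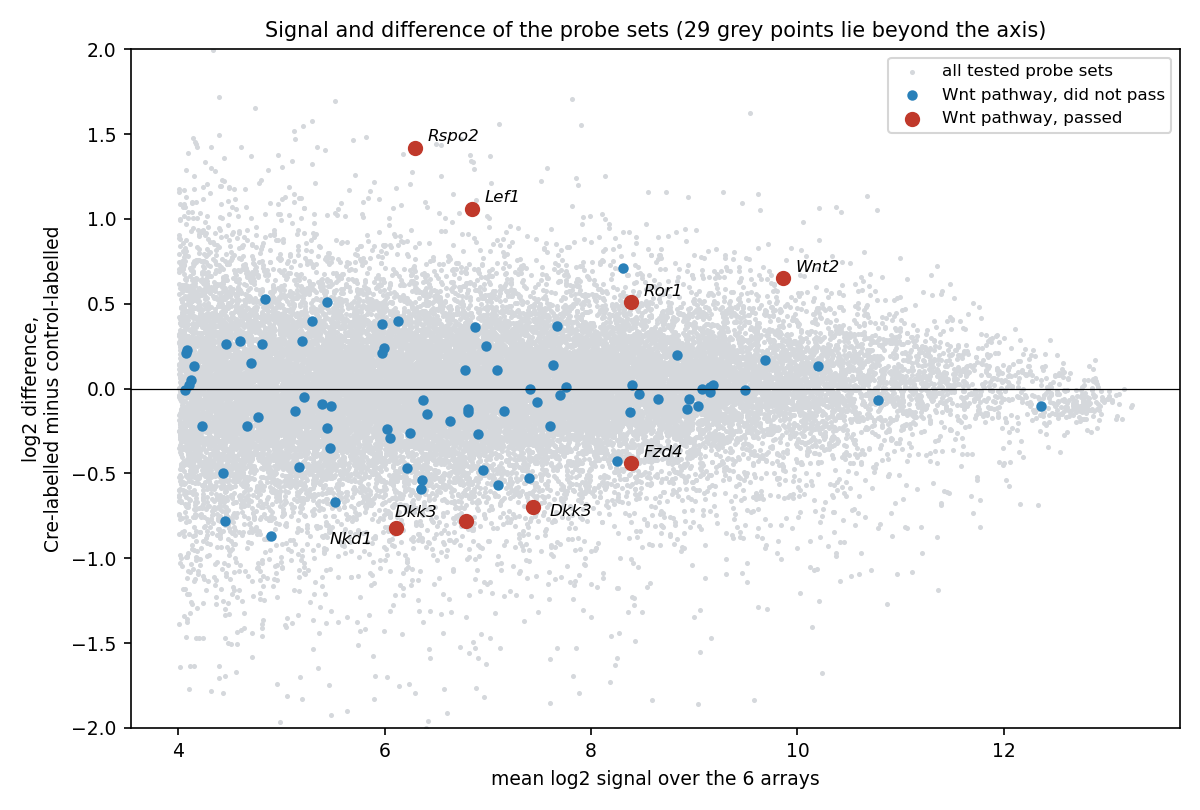
Mean log2 signal over the 6 arrays (horizontal axis) and log2 difference, Cre-labelled minus control-labelled (vertical axis), for all 27022 tested probe sets in grey and the 86 of the Wnt pathway in blue and red. The 8 that passed are named; the others lie within the grey cloud.

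Wnt2 and Rspo2 are known from mesenchyme, and no gene of the mesenchymal marker list passed. Of its 11 genes 3 had an unadjusted p under 0.05 in limma (1 higher and 2 lower), 6 had a higher mean, and the summed linear signal was 19382 to 21866 in Cre-labelled and 18921 to 23558 in control-labelled lungs. The list includes Tbx4, Tbx5, Foxf1 and Col1a1. It also includes Twist2, the locus of the Cre driver, and any effect of the driver on that marker was not tested. The mean log2 signal of the list was 9.40 to 9.61 on Cre-labelled and 9.41 to 9.46 on control-labelled arrays. A mean over markers that moved both ways does not measure the share of mesenchyme in a lung, which was not tested. Of 6 smooth muscle markers none passed (2 at an unadjusted p under 0.05, both higher), with a summed signal of 6193 to 6433 in Cre-labelled and 5382 to 5965 in control-labelled lungs. Other lists separated the groups more widely. Of 5 measured markers of proliferating cells 4 passed as higher, with a summed signal of 7359 to 7692 in Cre-labelled and 4941 to 5540 in control-labelled lungs. Of 11 epithelial markers 3 passed as lower (Sftpb, Abca3 and Aqp5), with 22919 to 24393 in Cre-labelled against 26170 to 43911 in control-labelled lungs. At an unadjusted limma p under 0.05, 7 epithelial markers were lower and 1 was higher. Mesothelial markers moved the same way, with 2 of 5 passing as lower (summed signal 1664 to 2018 in Cre-labelled against 2864 to 3549 in control-labelled lungs). So did leukocyte markers, with 2 of 5 tested passing as lower (2938 to 3466 in Cre-labelled against 4998 to 5653 in control-labelled lungs). In each of these lists 3 markers were lower at an unadjusted limma p under 0.05, and none was higher. However, 1 of the 5 mesothelial markers had a higher mean in Cre-labelled lungs. The leukocyte marker Cd3e lay below the filter, and skeletal muscle markers, with none of 4 tested passing (1 at an unadjusted p under 0.05), summed to 239 to 302 in Cre-labelled and 290 to 3195 in control-labelled lungs. The mean log2 signal of the skeletal list was 8.08 on control-labelled replicate 1, against 4.91 and 3.98 on replicates 2 and 3. The same array had the highest mean of the cardiac list, 9.53. How far these shifts contribute to the differences in Wnt genes was not tested.

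**Figure D4:**
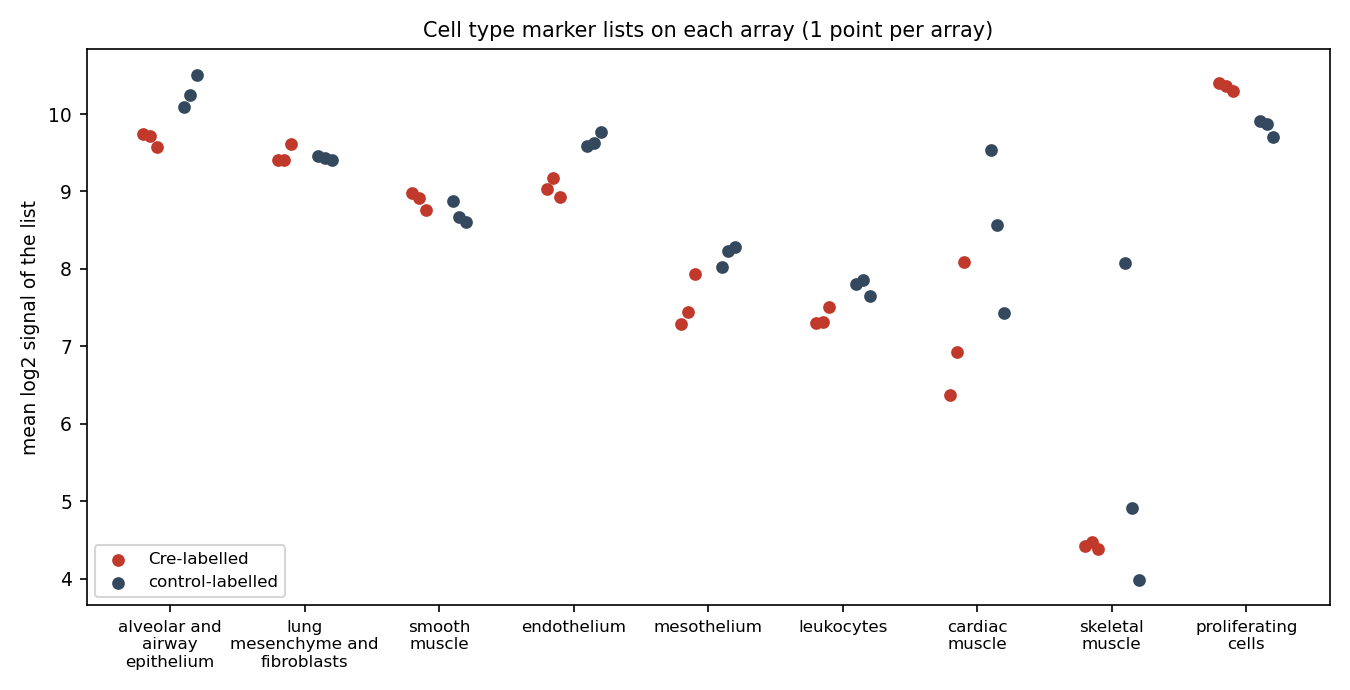
Mean log2 signal (vertical axis) of 9 lists of cell type markers on each array, 1 point per array, Cre-labelled in red on the left and control-labelled in dark blue on the right. The mesenchymal and smooth muscle lists overlap between groups, the proliferation list is higher and the epithelial, endothelial, mesothelial and leukocyte lists are lower in Cre-labelled lungs. The cardiac list scatters widely in both groups, and the skeletal muscle list scatters widely among control-labelled arrays only.

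Of 62 further ligands, regulators and planar polarity genes, 42 had their brightest probe set tested; over all 79 tested probe sets 1 passed (1.27%, against 3.56% of all tested probe sets), and the median difference was -0.14. The one was Lrp4, a receptor that binds Wnt inhibitors such as sclerostin, at 7.56, 7.66 and 7.49 on Cre-labelled and 8.06, 8.19 and 7.94 on control-labelled arrays (-0.49 ± 0.11 SE, limma adjusted p = 0.047). The call was lost in each of the 6 fits without 1 array. The ligand gene Wnt3a came closest among the rest, at 5.25, 5.24 and 5.52 on Cre-labelled and 5.96, 6.06 and 6.29 on control-labelled arrays, with no overlap (-0.77 ± 0.19 SE, adjusted p = 0.058). Dact1, a Dishevelled-binding regulator (0.49 ± 0.13 SE, adjusted p = 0.071), and Apcdd1, a membrane inhibitor (-0.56 ± 0.14 SE on 1 of its 5 tested probe sets, adjusted p = 0.060), did not pass either.

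Of 15 genes listed as targets of beta-catenin in various tissues, Mycn, Tnfrsf19 and Sox4 rose and none fell (1 probe set lower at an unadjusted p under 0.05). Of their 26 tested probe sets 3 passed, all higher, where 3.56% of all tested probe sets passed and 1.41% as higher. The median difference was 0.17. This list too was chosen with earlier results of these data known, so its share cannot be read as an excess. Sox4, a transcription factor gene, read 11.67, 11.57 and 11.83 on its brightest probe set in Cre-labelled lungs and 11.12, 11.13 and 11.10 in control-labelled lungs (0.58 ± 0.11 SE, limma adjusted p = 0.027). The dimmer tested Sox4 probe sets differed by 0.17 to 0.59, with overlapping groups, and did not pass. Tnfrsf19, a receptor of the tumour necrosis factor family, read 9.59, 9.47 and 9.71 in Cre-labelled and 8.99, 9.18 and 9.18 in control-labelled lungs (0.47 ± 0.11 SE, adjusted p = 0.043). Mycn, which drives growth of lung progenitors in the mouse, read 8.09, 8.23 and 7.76 in Cre-labelled against 7.42, 7.41 and 7.02 in control-labelled lungs (0.74 ± 0.16 SE, adjusted p = 0.039), while its 2 dimmer tested probe sets had 0.01 ± 0.22 SE and -1.34 ± 0.74 SE and did not pass. Without 1 array, between 0 and 1 of the 26 passed, the 1 being in the fit without Cre-labelled replicate 3. Ccnd1 and Myc, the targets named most often in other tissues, did not pass, with Ccnd1 at -0.30 to -0.01 over 3 probe sets and Myc at 0.28 ± 0.18 SE. Many of these genes also answer to other signals, so the list does not read Wnt activity alone.

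**Figure D5:**
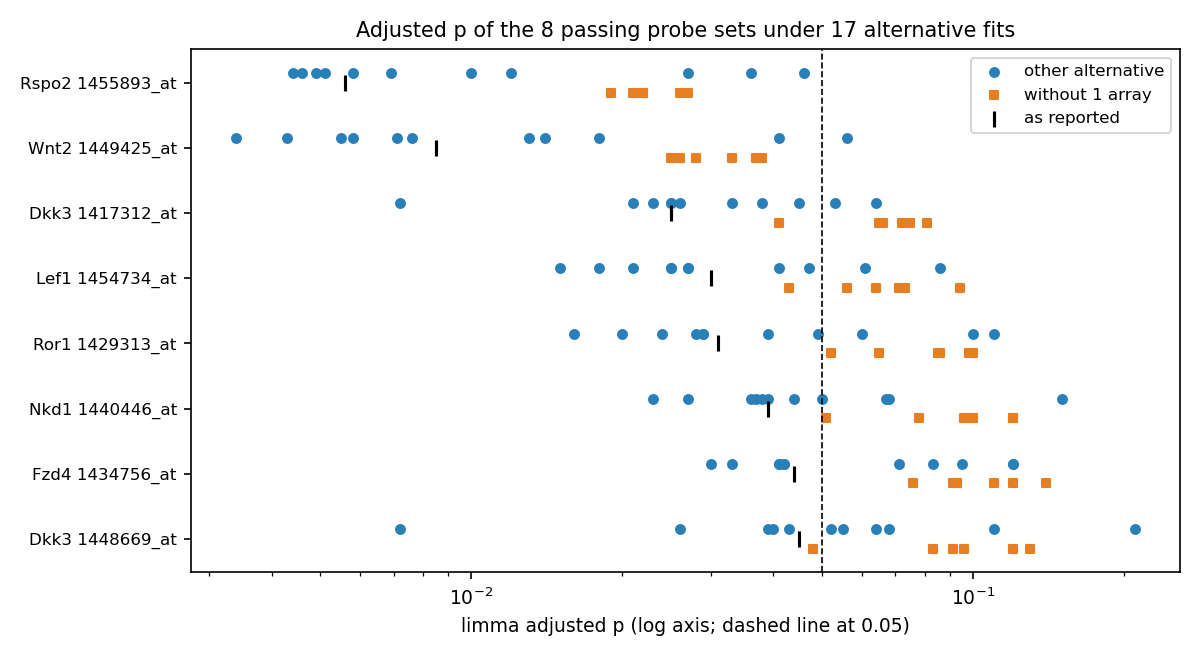
Limma adjusted p (horizontal log axis) of the 8 passing probe sets as reported (black bar), in the 6 fits without 1 array (orange squares) and in 11 other alternatives (blue circles), with a dashed line at 0.05. All points of Rspo2 and all but 1 of Wnt2 lie left of the line, and the other 6 probe sets cross it.

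The calls differed in how much they depended on single arrays. Of the 4 probe sets higher in Cre-labelled lungs, 2 to 3 passed without any 1 array, and Rspo2 and Wnt2 were always among them. Of the 4 lower, 0 to 1 passed (1 when Cre-labelled replicate 2 or 3 was left out, and 0 when any of the other 4 arrays was). The signs of all 8 were the same in each of the 17 alternatives. For a single probe set, an exact two-sided permutation test of 3 against 3 arrays cannot give a p below 0.10, so the calls rest on the limma fit across all probe sets.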

How the data were processed

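Biotinylated cRNA from 6 whole lungs, 1 per animal, was hybridised to Affymetrix arrays, per the labels' protocols. The deposited values are log2 signals; MAS5 and affy appear in the submitters' processing notes with no version, and a common trimmed mean was found on each array. MAS5 subtracts background per probe set, so low values are noisy. The label of each array gave its group.

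Symbols came from the platform annotation, updated through a RefSeq table (GRCm38.p6); probe sets with several symbols or none were tested and not named. The brightest probe set of a gene is the one with the top mean over the 6 arrays. Probe sets with a mean at or above the 40th percentile of those that were not controls entered a two-sided limma fit without covariates (limma 3.58.1, R 4.3.3, eBayes with an intensity trend), and p-values were adjusted by Benjamini-Hochberg over all 27022 with a threshold of 0.05. The prior added 5.32 degrees of freedom to 4 residual ones. The fit was tested on simulated data. The number of arrays limits precision. The 17 alternatives were quantile normalization, offsets of 16 and 64, no filter, a filter at the 60th percentile, no trend, array weights, covariates for fetal sex and for the cardiac marker mean, averaging over the probe sets of each gene, the replicate block, and each array left out. Figures used matplotlib 3.10.9.

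The members and lists were chosen with earlier results of these data known. Array values are given for genes that passed, the 12 with the smallest p, those whose groups lay apart by a mean difference of at least 0.5, and Axin2, Ctnnb1, Wnt2b and Wnt7b. Ror2, Wnt3a, Dact1, Apcdd1, Ccnd1 and Myc were singled out after their values were seen.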

Additional observations from a re-analysis of the deposited data

How the results depend on the processing

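Over 17 alternatives the 8 passing probe sets kept their direction. The count over all probe sets (963) was 535 with the cardiac list as a covariate, 587 with fetal sex and 171 without an intensity trend, and 314 to 495 without 1 array. Members higher (4) were 2 with the cardiac covariate, 1 without the trend and 2 to 3 without 1 array. Members lower (4) were 0 with the cardiac covariate, 1 with fetal sex, 1 with no filter, 0 without the trend and 0 to 1 without 1 array; in limma at an unadjusted p under 0.05 there were 11, 11, 11, 11 and 8 to 13. The further pathway list (1) gave 3 with array weights, 3 with a gene's probe sets averaged, 2 with the replicate block, and 0 with fetal sex, no filter or no trend (10, 17 and 10 at an unadjusted p under 0.05), and 0 without any 1 array (9 to 14). The target list (3) gave 0 with the cardiac covariate, 1 with no filter, 0 without the trend (6, 8 and 7 unadjusted), and 0 to 1 without 1 array. The cause of these changes was not tested, except that leaving out an array leaves fewer samples and no filter adds probe sets to the adjustment. Because 1 lung of each group was female, the fetal sex covariate left the differences of the 8 passing probe sets unchanged. Axin2 turned sign with array weights (-0.004), without Cre-labelled replicate 1 (-0.0006) and without control-labelled replicate 3 (-0.03), and Ctnnb1 without control-labelled replicate 3 (0.10; -0.26 to 0.10 over the 6 fits without 1 array); none of these passed.

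The labels number the animals 1 to 3 in each group without tying equal numbers together. Deviations of equal-numbered arrays correlated at -0.01, 0.20 and 0.14, and not every array correlated best with its own number. With the replicate block 1309 probe sets passed, 4 members higher and 4 lower; among those lower, the brighter Dkk3 probe set no longer passed (adjusted p = 0.052) and Lgr4 did (0.041). Signals near the filter level limit what can be seen of Wnt2b, Frzb, Dvl3, Rspo3, Lgr5 and Lrp5.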
